A study of Rattus norvegicus with 26 samples.

Results

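Primary neuronal cultures from the cerebral cortex of rat pups at postnatal day 1 were represented by 4 arrays, N1 to N4, of 26 in the series. They are compared here as a pair, N1 and N2, against the other pair, N3 and N4. The pairs were selected on the correlations between the arrays over all probe sets, in which N1 was closest to N2 and N3 to N4. Every gene measured on these 4 arrays therefore took part in choosing the pairs, and the differences below are a description with no test. The labels name the 4 samples as biological replicates of 1 condition and give no strain, treatment, culture age or other property by which the pairs differ. They do not say whether a replicate was 1 pup, a pool of pups or a separate dissection. The other arrays carried astrocytic, oligodendrocytic and microglial cultures of the same tissue (4 arrays each) and 10 mixtures of RNA from these cultures. Total RNA was extracted with TRIzol, cleaned on RNeasy columns and biotin-labelled, and the values are log2 expression on Affymetrix arrays.

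The developing cortex holds excitatory neurons, which arise within the cortex and release glutamate, and inhibitory interneurons, which migrate in from the ventral forebrain and release GABA. Interneurons fall into classes that are told apart by neuropeptides and calcium-binding proteins such as somatostatin, neuropeptide Y, vasoactive intestinal peptide, calretinin and parvalbumin. A neuronal culture from newborn cortex also holds some glia and their progenitors, and transcripts that depend on synaptic activity vary with the state of the cells. In bulk RNA, fewer cells of a type and less RNA per cell cannot be told apart.

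All 4 arrays carried high levels of genes that define neurons. The synaptic vesicle fusion gene Snap25 read 12.57, 12.55, 12.57 and 12.65 log2 units on N1, N2, N3 and N4, the order kept for each set of 4 values below. The dendritic microtubule gene Map2 read 12.01, 11.73, 11.28 and 11.59. Snap25 hardly differed between the pairs, and Map2 was slightly lower in N3 and N4 on this probe set, while its other probe set showed no separation. The microglial marker Aif1 read 3.48, 3.37, 3.14 and 3.51, close to the lowest values of the table, which ran from 2.57 to 14.36.

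Over all 31099 probe sets, Pearson's r was 0.992 between N1 and N2 and 0.995 between N3 and N4, against 0.974 to 0.981 across the pairs. Among 14217 genes, those whose 2 arrays lay at least 1 log2 unit apart numbered 91 between N1 and N2 and 9 between N3 and N4. Between an array of one pair and an array of the other they numbered 664 to 913. N1 and N2 were thus less alike than N3 and N4, and any array was further from the other pair than from its partner. A gene is counted below as higher in a pair when both arrays of that pair lay above both of the other and the pair means were at least 1 log2 unit apart, a 2-fold difference. By this rule 278 genes were higher in N1 and N2, which is 1.96% of all genes, and 426 were higher in N3 and N4, which is 3.0%. Separation alone, with no minimum, held for 29.8% of genes with N1 and N2 higher and for 30.5% with N3 and N4 higher. Since these arrays chose the pairs, nothing is read from these shares.

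**Figure D1:**
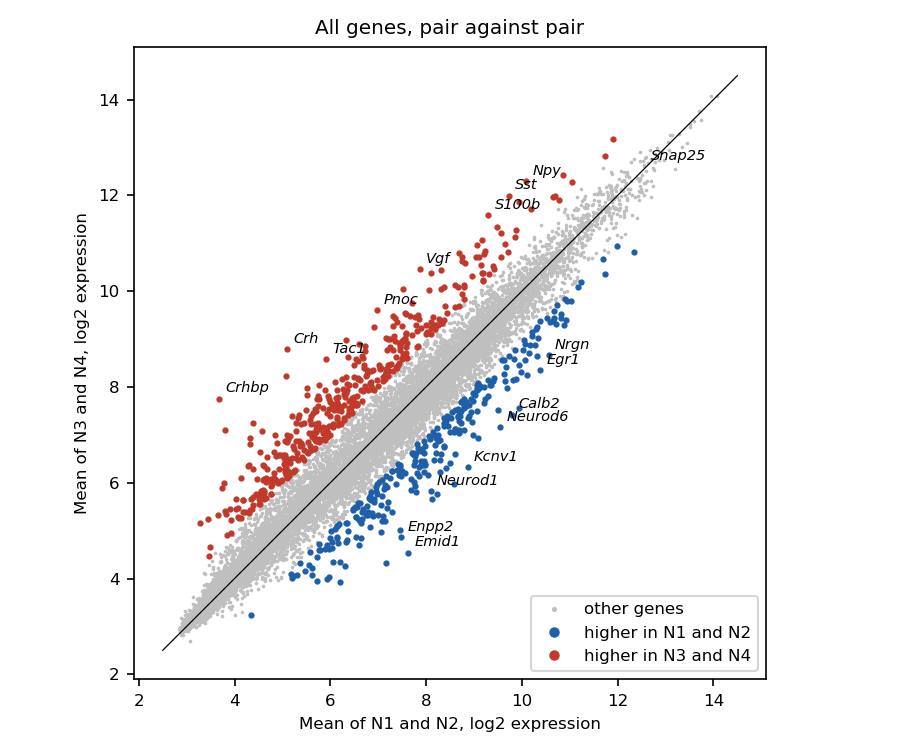
Each point is 1 of 14217 genes, with the mean log2 expression of N1 and N2 on the x axis and of N3 and N4 on the y axis. Blue points are the 278 genes counted as higher in N1 and N2, red points the 426 counted as higher in N3 and N4, grey points all others, and the line marks equal means. Crh and Crhbp lie far above the line, Emid1 and Neurod6 far below it, and Snap25 on it.

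Some control measurements moved with the pairs. The ribosomal 5S probe set read 5.74, 5.52, 6.49 and 6.57, and the spike-in transcript BioC, added to every hybridisation, read 8.02, 8.05, 8.48 and 8.52. Both were higher on N3 and N4. The difference between the 3′ and 5′ actin probe sets, a sign of RNA integrity, was 2.27, 1.54, 1.66 and 1.81, and that of hexokinase was 1.85, 1.12, 1.13 and 1.12, so here N1 alone stood apart. The X-inactivation transcript Xist read 8.99, 8.95, 9.81 and 9.68, and the Y-linked Eif2s3y read 7.90, 7.70, 6.68 and 7.12. The part of RNA quality, hybridisation or the sex of the pups in the differences was not tested.

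More excitatory neuron genes were higher in N1 and N2 than in N3 and N4. Of 34 listed genes 30 were measured. Of these, 12 (40.0%) were counted as higher in N1 and N2, against 1.96% of all genes. Higher in N3 and N4 were 2 (6.7%), against 3.0% of all genes, and the other 16 were not counted. The median difference over the list, N3 and N4 minus N1 and N2, was -0.57 log2 units, against 0.01 over all genes. The mean level of the list was 8.69, 8.42, 7.94 and 8.03 on the 4 arrays.

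Among the counted genes of the list, the transcription factors Neurod6 and Neurod1 had the widest differences, and other factors of the excitatory lineage had smaller ones. Neurod6, a basic helix-loop-helix factor of cortical excitatory neurons, read 9.36, 9.73, 6.99 and 7.34, a 5.20-fold difference between pair means. The related factor Neurod1, which acts as excitatory neurons differentiate, read 8.14, 8.05, 5.64 and 6.02, a 4.83-fold difference. In both, the arrays of a pair lay within 0.38 log2 units of each other and the pairs were at least 2.02 apart at their nearest arrays. Mef2c, an activity-responsive factor, read 12.28, 12.42, 10.88 and 10.75. The upper-layer factor Cux2 read 8.82, 8.58, 7.28 and 7.67, and the dorsal forebrain factor Emx1 read 7.09, 7.41, 6.03 and 6.16. These were 2.90-, 2.33- and 2.23-fold higher in N1 and N2. Bhlhe22, a factor of cortical projection neurons, was 2.04-fold higher there, at 11.82, 11.59, 10.66 and 10.69.

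Genes for synaptic signalling in excitatory neurons went the same way. Nrgn, the postsynaptic calmodulin-binding protein neurogranin, read 10.23, 10.89, 8.56 and 8.78, a 3.70-fold difference. Camk2a, the alpha subunit of the calcium/calmodulin-dependent kinase of synapses, read 9.01, 8.43, 6.98 and 7.51, a 2.79-fold difference. Slc17a7, the vesicular glutamate transporter VGLUT1, read 9.90, 9.43, 8.25 and 8.56, a 2.39-fold difference, and Slc30a3, which loads zinc into glutamatergic vesicles, was 2.45-fold higher at 9.35, 9.33, 7.91 and 8.19. These are counted genes, so the rule itself requires that the pairs do not overlap in them. Nptx1, a pentraxin that clusters AMPA receptors, read 8.17, 6.95, 6.32 and 6.09, so its 2.56-fold difference rested largely on N1, which lay 1.22 above N2. Mpped1, a cortical metallophosphoesterase gene, read 11.86, 11.62, 10.29 and 10.43, while its other probe set lay at 4.75, 5.16, 5.05 and 5.23 and did not separate the pairs.

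The excitatory list did not move as a block. Slc17a6, the other vesicular glutamate transporter, VGLUT2, read 8.56, 8.60, 9.27 and 9.20, so it separated the pairs in the direction opposite to Slc17a7 by 0.65 log2 units and was not counted. Pcp4, a calmodulin regulator of deep-layer neurons, read 11.21, 10.16, 11.96 and 12.002, and Etv1, a factor of layer 5 neurons, read 7.29, 7.04, 8.30 and 8.27. These were 2.45- and 2.18-fold higher in N3 and N4. Without N2 they differed by 0.77 and 0.998 log2 units and neither was counted, while without N1 the list had 4 genes higher in N3 and N4. The deep-layer factors Bcl11b (9.26, 8.39, 9.01 and 9.30) and Foxp2 (7.05, 5.87, 6.68 and 7.07) overlapped between the pairs, and in both N2 alone was low. Tbr1, which marks early deep-layer neurons, lay between 4.01 and 4.61 on all 4 arrays, below the array medians.

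**Figure D2:**
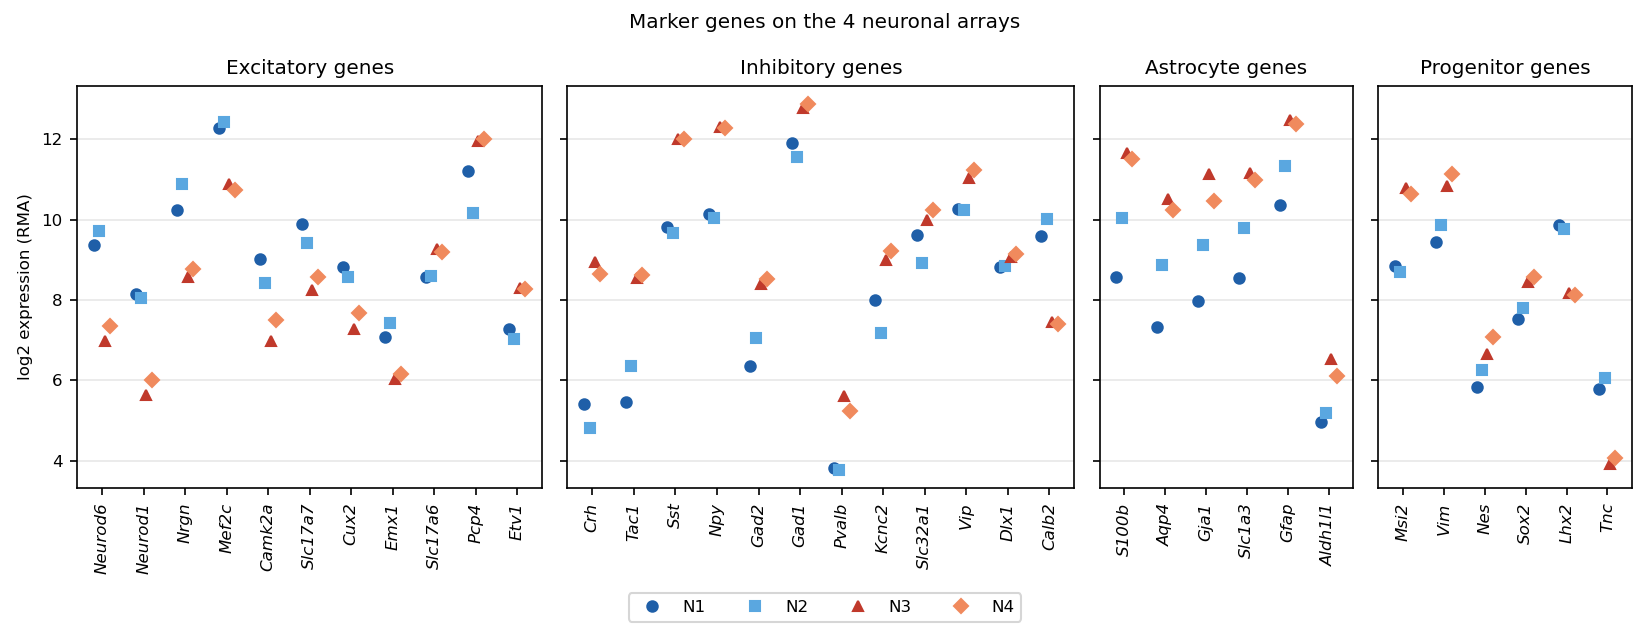
Log2 expression of single genes (x axis) on the 4 neuronal arrays, with N1 and N2 in blue and N3 and N4 in red and orange. Neurod6 to Emx1 sit higher on N1 and N2, Crh to Kcnc2 and the 6 astrocyte genes sit higher on N3 and N4, and Calb2, Lhx2 and Tnc sit higher on N1 and N2.

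Genes of inhibitory neurons were split, with Crh, Tac1, Sst, Npy and both genes of GABA synthesis higher in N3 and N4 and calretinin higher in N1 and N2. Of 48 listed genes 36 were measured. Of these, 8 (22.2%) were counted as higher in N3 and N4 and 4 (11.1%) as higher in N1 and N2. Over all genes 3.0% and 1.96% were counted in these directions. The count of 4 was 2 without N1 and 2 without N4. Without the minimum, 21 separated the pairs with N3 and N4 higher and 9 with N1 and N2 higher. Over all genes these shares were 30.5% and 29.8%, so the 9 of 36 lay under the share over all genes. The median difference was 0.47, and the list mean was 7.61, 7.49, 8.03 and 8.05.

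Among the listed genes counted as higher in N3 and N4, neuropeptide genes held the widest differences. Crh, which encodes corticotropin-releasing hormone, read 5.41, 4.80, 8.95 and 8.64, a 12.9-fold difference. Tac1, the precursor of substance P, read 5.46, 6.35, 8.55 and 8.62, a 6.41-fold difference. Sst, which encodes somatostatin, read 9.81, 9.66, 11.999 and 11.996, a 4.80-fold difference, and Npy, neuropeptide Y, read 10.14, 10.04, 12.30 and 12.28, a 4.61-fold difference. In the last pair of genes N3 and N4 agreed within 0.02 log2 units, and the nearest arrays of the pairs were over 2 units apart. Vip, vasoactive intestinal peptide, read 10.27, 10.24, 11.04 and 11.23, which separated the pairs by 0.88 in the means and was not counted. Penk, proenkephalin, read 9.67, 8.89, 9.94 and 10.05, and Cck, cholecystokinin, went the other way at 11.91, 11.65, 11.11 and 11.04. Both separated the pairs and neither was counted. Reln, the secreted protein reelin, read 9.05, 9.24, 9.92 and 10.14, and also stayed under the minimum.

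The enzymes that make GABA were also higher in N3 and N4, with smaller differences than Crh, Tac1, Sst and Npy. Gad2, a glutamate decarboxylase found at synapses, read 6.36, 7.06, 8.41 and 8.51, a 3.35-fold difference. Gad1, the other decarboxylase, read 11.91, 11.56, 12.78 and 12.87, a 2.13-fold difference, which was 0.92 log2 units without N2. Slc32a1, which loads GABA into vesicles, read 9.62, 8.91, 9.99 and 10.24 and was not counted, since the means lay 0.85 apart. The lineage factors Dlx1 (8.83, 8.85, 9.06 and 9.15) and Dlx5 (6.93, 6.78, 7.38 and 7.46) separated the pairs by 0.26 and 0.57, and Nkx2-1, a factor of the medial ganglionic eminence, by 0.54 at 4.50, 4.45, 4.98 and 5.04. These 3 factors differed by less than Crh, Tac1, Sst and Npy. Kcnc2, a fast potassium channel subunit of fast-spiking cells, read 7.99, 7.18, 8.99 and 9.22, and 1 of its 6 probe sets had the opposite sign, at -0.13. Pvalb, parvalbumin, read 3.82, 3.77, 5.60 and 5.23, and so was near the bottom of the range in N1 and N2 and around the array median in N3 and N4.

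Calretinin gave the widest difference of the list in the other direction. Calb2 read 9.60, 10.01, 7.46 and 7.39, a 5.21-fold higher mean in N1 and N2. Drd2, the dopamine D2 receptor, read 7.16, 6.14, 5.27 and 5.05. Prox1, a factor of interneurons from the caudal ganglionic eminence, read 7.01, 6.96, 6.02 and 5.94, just past the minimum. Without N1, Drd2 and Prox1 each differed by less than the minimum. Cxcr4, a receptor that guides migrating interneurons, read 5.86, 6.33, 5.16 and 4.89, but its mean was 9.31 in astrocyte and 9.85 in microglial cultures. Calb1, calbindin, differed little between the pairs at 9.44, 9.49, 9.28 and 9.28.

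Astrocyte genes were higher in N3 and N4 over nearly the whole list. Of 34 listed genes 29 were measured, 21 (72.4%) were counted as higher in N3 and N4 and 0 as higher in N1 and N2. Over all genes 3.0% and 1.96% were counted in these directions. The median difference was 1.30, and the list mean was 6.83, 7.46, 8.50 and 8.33, against 9.44 in astrocyte cultures. Of the 8 genes that were not counted, Sparcl1, a secreted matricellular protein, Slc1a2, the glial glutamate transporter GLT-1, and Id4 had differences of 0.81, 0.83 and 0.25. The other 5 (Cyp4f4, Dio2, Cldn10, Gjb6 and Kcnj10) lay between 3.17 and 4.51 on every neuronal array.

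The 4 arrays differed within N1 and N2 as well as between the pairs. N1 was the lowest of the 4 arrays for 25 of the 29 genes, and 21 had the order N1, N2, N4, N3 from low to high, which 1310 of 14217 genes overall had. The median of N2 minus N1 was 0.64, and 9 genes lay at least 1 unit apart between N1 and N2 against 0 between N3 and N4. The nearest arrays of the pairs were a median of 0.94 apart. S100b, a calcium-binding protein, read 8.56, 10.04, 11.66 and 11.52, a 4.89-fold difference in pair means. Aqp4, the water channel of astrocyte endfeet, read 7.33, 8.87, 10.51 and 10.23, and Gja1, the main gap junction connexin of astrocytes, read 7.98, 9.38, 11.14 and 10.47. These differed 4.83- and 4.37-fold. On these probe sets N2 lay between N1 and the other pair in all 3 genes, more than 1 unit from either. Another of the 3 probe sets of Aqp4 went the same way. The third read 7.49, 6.81, 6.89 and 7.59 and did not separate the pairs.

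Other defining astrocyte genes had smaller differences. Gfap, the intermediate filament of astrocytes, read 10.37, 11.34, 12.49 and 12.38, a 2.98-fold difference, against a mean of 13.12 ± 0.74 (SD, n = 4) in astrocyte cultures. Slc1a3, the glutamate transporter GLAST, read 8.56, 9.78, 11.16 and 10.98. Another of its 3 probe sets went the same way, and the third read 8.31, 8.05, 7.67 and 7.67, which is the opposite direction. Aldh1l1, a folate enzyme, read 4.96, 5.18, 6.54 and 6.11, and Aldh1a1, which makes retinoic acid, read 4.36, 4.26, 6.26 and 6.49. For these last genes N1 and N2 lay close together, unlike S100b and Aqp4. Apoe, the main lipid carrier of the brain, read 9.90, 11.40, 12.09 and 11.86, so the gap between N1 and N2 was wider than the 0.47 between the pairs, and its other probe set differed by -0.06. The remaining counted members were Acsbg1, Aldoc, Clu, Ezr, Fabp7, Fgfr3, Glul, Mlc1, Ndrg2, Nfia, Ntsr2, Slc4a4 and Timp3.

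**Figure D3:**
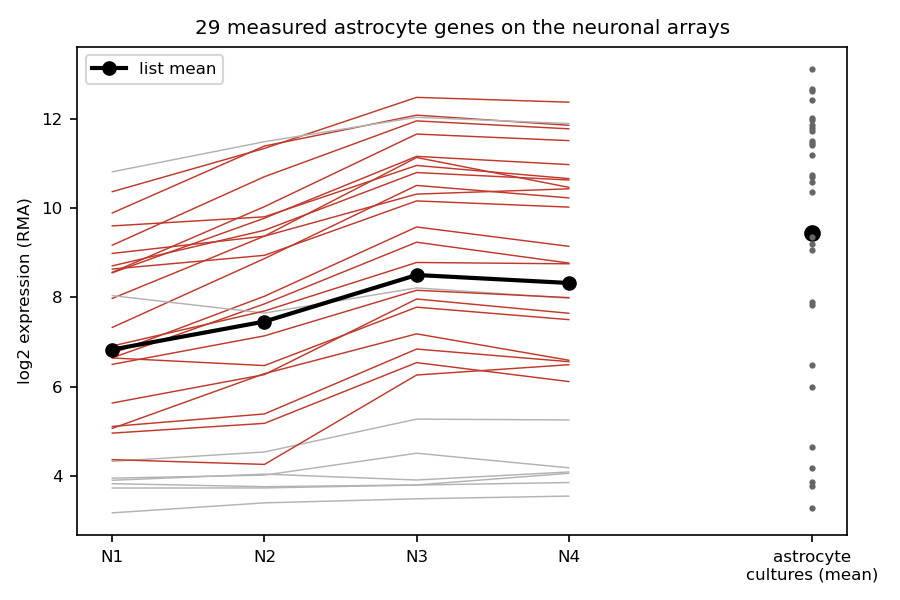
Each line is 1 of 29 measured astrocyte genes, with the neuronal array on the x axis and log2 expression on the y axis; red lines are the 21 genes counted as higher in N3 and N4, grey lines the others. Black points are the list mean (6.83, 7.46, 8.50 and 8.33), and the points at the right are the mean of the astrocyte cultures for each gene and for the list (9.44).

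Genes of reactive astrocytes were in part higher in N3 and N4. Of 20 listed genes 17 were measured. Of these, 6 (35.3%) were counted as higher in N3 and N4 and 1 (5.9%) as higher in N1 and N2. Over all genes 3.0% and 1.96% were counted in these directions. Timp1, a metalloproteinase inhibitor, read 5.44, 5.99, 7.64 and 7.85, and Hspb1, a small heat shock protein, read 6.27, 6.40, 7.80 and 8.05. These were 4.09- and 3.01-fold higher in N3 and N4. Lcn2, lipocalin 2 (7.41, 7.60, 8.22 and 9.70), and Cp, ceruloplasmin (5.41, 4.97, 5.79 and 7.26), were high on N4 in particular, and without N4 their differences were 0.72 and 0.60. Vim and Gfap are members of this list too. Emp1, an epithelial membrane protein gene, was the 1 gene higher in N1 and N2, at 6.45, 6.75, 5.26 and 5.20. Complement C3 did not separate the pairs (5.56, 5.37, 5.50 and 5.82).

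Progenitor genes had no common direction. Of 36 listed genes 28 were measured, and the median difference was 0.05. Against 1.96% (N1 and N2) and 3.0% (N3 and N4) of all genes, 4 (14.3%) were counted as higher in each pair. Those higher in N3 and N4 were also high in astrocyte cultures. Msi2, an RNA-binding protein of stem cells and astrocytes, read 8.83, 8.69, 10.79 and 10.63, a 3.86-fold difference, against 11.12 in astrocyte cultures. Vim, vimentin, read 9.44, 9.88, 10.84 and 11.15, against 14.10 there. Fabp7, a fatty acid carrier of radial glia and astrocytes, read 9.17, 10.71, 11.96 and 11.78, and Lrig1, a regulator of growth factor receptors, read 6.84, 6.86, 8.24 and 7.95. Fabp7 was the gene with the wide gap between N1 and N2, as in the astrocyte list, which it also belongs to.

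The 4 progenitor genes higher in N1 and N2 were of several kinds. Lhx2, a cortical patterning factor, read 9.87, 9.77, 8.18 and 8.11, a 3.19-fold difference. Tnc, the matrix protein tenascin C, read 5.79, 6.05, 3.92 and 4.06, a 3.82-fold difference. Astrocyte cultures carried both at higher levels still, 10.31 for Lhx2 and 10.63 for Tnc, so these genes went against the direction of the astrocyte list. Sox11, a factor of newborn neurons, read 6.22, 5.35, 4.48 and 4.73, and Cd24, a surface protein of young neurons, read 10.06, 10.54, 9.15 and 9.28.

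Of the defining progenitor genes, Vim was counted, as given above, and Nes, Sox2, Pax6 and Hes5 were not. Nes, nestin, read 5.84, 6.26, 6.65 and 7.08, and Sox2, a neural stem cell factor, read 7.54, 7.80, 8.46 and 8.56, so both separated the pairs with N3 and N4 higher, by 0.82 and 0.85. Pax6, the radial glial factor, read 4.97, 3.99, 5.15 and 5.21, and N2 alone was low. Hes5, a Notch target, overlapped at 5.08, 5.44, 5.44 and 5.11. Eomes, a marker of intermediate progenitors, lay between 3.32 and 3.90 on all 4 arrays. Of 21 measured genes of cell division, 2 (9.5%) were counted, both higher in N3 and N4, against 3.0% of all genes. These were the cyclins Ccnd1 (6.24, 6.84, 8.48 and 8.68) and Ccnd2 (8.56, 8.95, 10.66 and 10.60), which act early in the cell cycle. Mki67 (3.82, 3.92, 4.04 and 4.01) and Top2a (4.34, 4.79, 4.69 and 4.85), which are made by dividing cells, stayed low on every neuronal array, against means of 7.58 and 9.13 in astrocyte cultures.

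Among genes of oligodendrocyte precursors, 15 of 18 were measured. Of these, 4 (26.7%) were counted as higher in N3 and N4 and 1 (6.7%) as higher in N1 and N2. Over all genes 3.0% and 1.96% were counted in these directions. Lhfpl3, a tetraspan membrane protein gene, read 4.76, 4.40, 6.96 and 7.21, and Tmem100 read 4.14, 4.51, 7.06 and 6.56, differences of 5.66- and 5.60-fold. Olig1, a factor of the oligodendrocyte lineage, read 6.85, 8.32, 9.83 and 9.23, and Bcan, the matrix proteoglycan brevican, read 7.37, 8.32, 9.61 and 9.24. The last pair of genes showed N1 lowest, as the astrocyte list did. Unlike Olig1, the defining markers Pdgfra, Olig2 and Sox10 were low on all 4 arrays. Pdgfra, the growth factor receptor of precursors, read 4.52, 4.83, 5.999 and 4.81, with N3 alone raised, Olig2 read 4.70, 4.82, 4.90 and 5.07, and Sox10 read 5.11, 5.14, 4.74 and 4.96. Their means in oligodendrocyte cultures were 11.07, 8.02 and 10.74. Vcan, versican, was higher in N1 and N2 (6.79, 6.27, 4.65 and 5.08), and 1 of its 5 probe sets had the opposite sign, at 3.40, 3.35, 3.50 and 3.43.

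Myelin genes gave a mixed picture. Of 18 measured oligodendrocyte genes, 2 (11.1%) were counted as higher in each pair and the median difference was -0.04. Over all genes 1.96% were counted as higher in N1 and N2 and 3.0% in N3 and N4. Mbp, myelin basic protein, read 8.19, 7.66, 6.35 and 6.38, a 2.95-fold difference, and Enpp2, the lysophospholipid enzyme autotaxin, read 7.46, 7.50, 4.91 and 4.82, a 6.12-fold difference, both higher in N1 and N2. Bcas1, a gene of new oligodendrocytes, went the other way at 4.86, 5.32, 7.10 and 6.63, as did the actin-severing protein Gsn at 7.50, 8.29, 9.14 and 9.33. Mog and Mag, which are made in myelinating cells, lay at or below 5.25 on all 4 arrays.

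Of 19 microglial genes 0 were counted in either direction, and the list mean was 4.59, 4.66, 4.81 and 4.69. Of 12 endothelial genes 1 was counted, Ocln, occludin (3.93, 3.76, 5.29 and 4.54), whose other probe set went the opposite way. Of 18 mesenchymal genes 3 (16.7%) were counted as higher in N3 and N4: Col1a1, a collagen chain (4.96, 4.27, 5.48 and 5.84), and the contractile genes Tagln (7.95, 7.18, 8.54 and 8.80) and Myl9 (6.64, 5.68, 7.56 and 7.68). For these 3 genes N2, not N1, was the lowest array, and without N2 their differences were 0.71, 0.72 and 0.98, under the minimum. The other probe set of Col1a1 differed by 0.29. B2m, the light chain of class I histocompatibility molecules, was the 1 interferon-related gene of 18 that was counted, at 8.95, 10.02, 11.38 and 11.32. The part of glial RNA in the differences of neuronal genes was not tested.

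**Figure D4:**
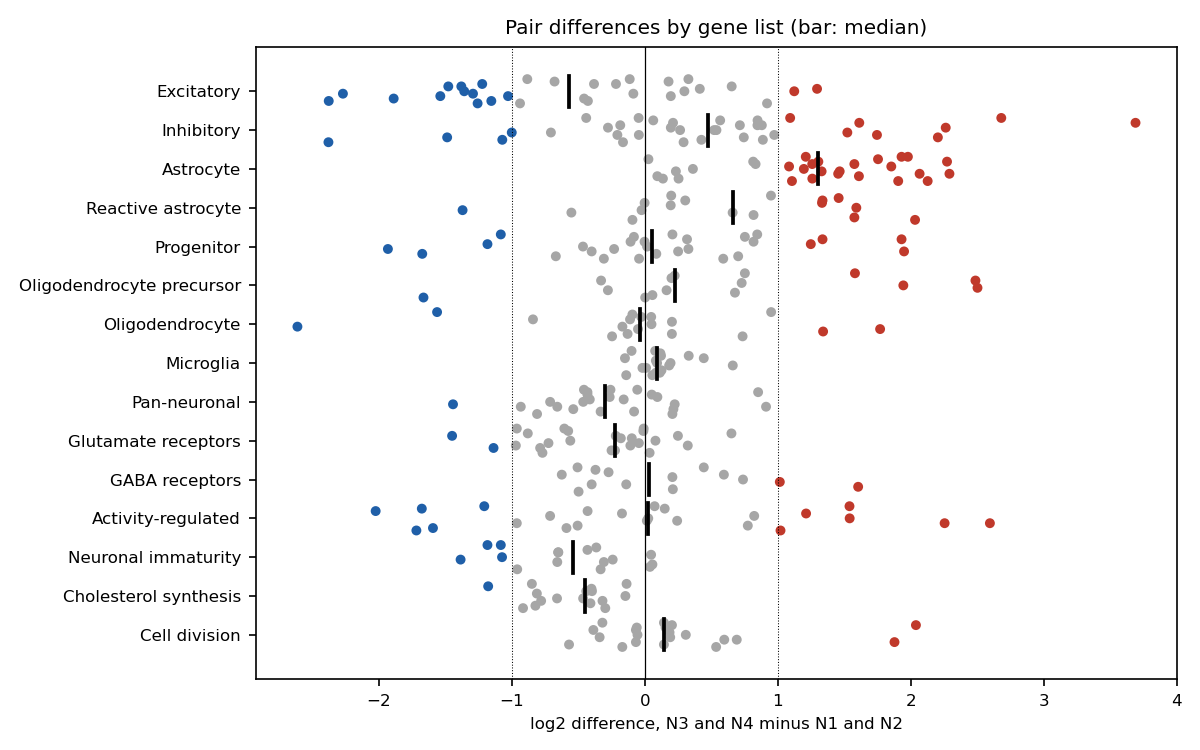
Each point is a measured gene of the list named on the y axis, with the pair difference (N3 and N4 minus N1 and N2, log2 units) on the x axis. Blue and red points are genes counted as higher in N1 and N2 and in N3 and N4, grey points are not counted, dotted lines mark a difference of 1 and black bars the list medians, which run from -0.57 for excitatory to 1.30 for astrocyte genes.

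Genes shared by most neurons differed little, with a lean toward N1 and N2. Of 24 such genes 1 was counted, Rbfox3, the nuclear marker NeuN, at 10.16, 10.15, 8.73 and 8.69. The median difference of the list was -0.30, and 16 genes separated the pairs with N1 and N2 higher against 3 the other way. Genes of young neurons leaned the same way. Of 16 measured, 4 were counted as higher in N1 and N2 (Draxin, Sox11, Cd24 and Marcks), 13 separated the pairs in that direction and 0 in the other, and the median was -0.54. Among all genes, 29.8% separated the pairs with N1 and N2 higher and 30.5% with N3 and N4 higher. Counted as higher in N1 and N2 were 1.96% of all genes. Dcx, the microtubule protein doublecortin of migrating neurons, read 10.12, 9.90, 9.34 and 9.37, and Stmn1 read 13.26, 13.14, 12.49 and 12.60. The maturity of a neuron and the number of neurons were not measured apart from these levels.

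Of 25 glutamate receptor and scaffold genes, 14 separated the pairs with N1 and N2 higher, against 29.8% of all genes. The other way it was 1, against 30.5% of all genes. The median difference of these 25 genes was -0.22. Of these genes 2 were counted, both higher in N1 and N2: the scaffold gene Shank2 (9.02, 8.84, 7.53 and 7.43, with another probe set at a difference of 0.18) and the metabotropic receptor Grm7 (6.61, 7.02, 5.45 and 5.90). The obligate NMDA receptor subunit Grin1 read 9.75, 9.66, 9.59 and 9.62, and the AMPA subunit Gria2 read 11.31, 11.15, 10.98 and 11.05. Of 14 GABA receptor and chloride transporter genes 2 were counted as higher in N3 and N4, the receptor subunits Gabrg1 (4.17, 4.78, 5.98 and 6.19) and Gabra4 (5.75, 6.23, 6.83 and 7.18). Slc12a5, the chloride exporter KCC2 that appears as neurons mature, read 11.11, 10.81, 10.24 and 10.43 and was not counted. Of 21 channel genes 3 were counted. The potassium channel Kcnq3 and the calcium channel Cacna1g (7.02, 6.82, 5.69 and 5.65) were higher in N1 and N2, and Kcnc2 was higher in N3 and N4. Kcnq3 read 5.37, 6.69, 4.71 and 4.83, and its other probe set had the opposite sign.

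Cholesterol synthesis genes had small differences in 1 direction. Of 16 measured genes, 15 separated the pairs with N1 and N2 higher and 0 the other way, while 1 passed the minimum, and the median difference was -0.45. Among all genes, 29.8% and 30.5% separated the pairs in these directions. Lss, lanosterol synthase, was the counted gene at 9.21, 8.82, 7.58 and 8.09. Sqle, squalene epoxidase, read 11.16, 11.02, 10.09 and 10.25. Means in astrocyte cultures were lower for both, 6.97 and 8.04.

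Activity-regulated genes split into opposite groups. Of 24 measured genes 5 were counted as higher in N1 and N2 and 6 as higher in N3 and N4, with a median of 0.02. Those higher in N1 and N2 were mostly early growth response genes. Egr1, a transcription factor induced within minutes of synaptic activity, read 10.27, 10.49, 8.46 and 8.25, a 4.07-fold difference. Egr4 (7.32, 6.69, 5.35 and 5.30), Egr2 (7.33, 6.47, 5.34 and 5.28) and Arc, which encodes a protein of active synapses (6.63, 6.09, 5.19 and 5.11), went with it, as did Inhba, an activin subunit (8.09, 7.61, 6.09 and 6.18). Averaged over their probe sets, Egr4 and Egr2 differed by -0.81, and the other probe set of Egr4 by 0.06. On N3 and N4, Egr4, Egr2 and Arc lay near the array medians of 5.31. Fos itself went the other way at 8.28, 8.10, 8.85 and 9.09 and was not counted.

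Those higher in N3 and N4 included secreted proteins and transcription factors. Vgf, the precursor of several secreted peptides, read 8.19, 7.54, 10.34 and 10.58, a 6.04-fold difference. Bdnf, brain-derived neurotrophic factor, read 6.48, 6.28, 8.61 and 8.66, a 4.77-fold difference, and Scg2, secretogranin of dense-core vesicles, read 10.18, 10.19, 11.59 and 11.86, a 2.91-fold difference. In Vgf, Bdnf and Scg2 the nearest arrays of the pairs were over 1 unit apart. Nr4a3, a nuclear receptor, read 8.03, 7.13, 9.28 and 8.96. Crem, a factor that binds the cyclic AMP response element, read 7.05, 7.28, 8.32 and 8.44, and Dusp1, a phosphatase of kinases in the same pathways, read 7.81, 7.80, 8.83 and 8.82. The last 2 lay at 2.32- and 2.03-fold.

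The cyclic AMP response element is the palindrome TGACGTCA, through which the factor CREB acts on genes such as Sst. Promoters of 300 bases ran from 250 before to 50 after an annotated start (RefSeq, GRCr8). They were searched for the element on both strands, which are identical for a palindrome. A gene could have more than 1 promoter and held the element when any of them did. The element was in 1.83% of 33469 promoters in the table, a share per promoter. It was in 2.93% of the 11733 array genes with a promoter, a share per gene. Of the genes higher in N3 and N4 that had a promoter, 14 of 348 held it (4.02%), and of those higher in N1 and N2, 4 of 203 (1.97%). The windows below show it in 3 genes higher in N3 and N4 and in Neurod6, which was higher in N1 and N2. Each is 30 bases on the gene's strand, 5′ to 3′, with the element in capitals.
Sst: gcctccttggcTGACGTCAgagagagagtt
Vgf: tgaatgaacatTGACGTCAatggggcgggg
Scg2: ggctgagccggTGACGTCAgcgaggaatgc
Neurod6: tctctgccctgTGACGTCActagcagatgg
The Sst window is chr11:90461537-90461566 on the plus strand. The others are on the minus strand, at chr12:25277092-25277121 for Vgf, chr9:88256971-88257000 for Scg2 and chr4:86180190-86180219 for Neurod6. The first base of the element lies at position 3 from the annotated start in Sst, and at -90 in Vgf, -123 in Scg2 and -53 in Neurod6. Crem and Dusp1 also held the element in their promoters. A match is a description of the letters and not a sign of binding, and the Neurod6 window shows it in a gene of the opposite direction. The binding site letters of the EGR factors, GCGTGGGCG on either strand, were in promoters of 2.46% of genes higher in N1 and N2. The share was 1.44% of genes higher in N3 and N4 and 1.05% of array genes, on 5, 5 and 123 genes. The E-box CAGATG, which NEUROD factors bind, was in 13.3%, 12.1% and 12.7%.

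Over all genes, the 12 with the widest gap between the nearest arrays of the pairs in each direction included several neuropeptide and interneuron genes. With N3 and N4 higher, Crhbp, which encodes the binding protein of corticotropin-releasing hormone, read 3.81, 3.55, 7.87 and 7.65, a 16.9-fold difference and a wider gap than that of its ligand gene Crh. Pnoc, the precursor of nociceptin, read 7.05, 6.90, 9.63 and 9.58. In the glial cultures the mean of Crhbp was at most 3.54 and that of Pnoc at most 5.63. Tcim, a small regulator of transcription (3.97, 3.65, 7.28 and 6.94), and Strip2 (4.55, 4.24, 7.35 and 7.15) had their highest culture mean in neurons. That mean includes N3 and N4, and on N1 and N2 Tcim averaged 3.81, below the astrocyte mean of 4.56. The chemokine Ccl20 (5.16, 4.99, 8.06 and 8.39), the fibrinogen-like protein Fgl2 (4.19, 4.44, 6.83 and 7.03) and the growth factor Igf1 (6.62, 6.59, 8.97 and 8.82) were higher still in a glial culture, at 8.48 and 10.45 in oligodendrocyte and 12.54 in microglial cultures. Tac1, Lhfpl3, Sst and Tcap (5.64, 5.38, 7.84 and 7.82), a muscle sarcomere gene, completed the 12.

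With N1 and N2 higher, Emid1, an extracellular matrix gene, had the widest gap, at 7.62, 7.64, 4.78 and 4.30, an 8.51-fold difference. Rfx3, a factor of ciliated cells, read 8.57, 8.59, 5.97 and 5.99. Kcnv1, a modifying potassium channel subunit of cortical neurons, read 8.70, 9.05, 6.32 and 6.33, and Itpka, an inositol phosphate kinase of dendritic spines, read 8.47, 7.98, 5.61 and 5.93. For these 4 genes the mean over all neuronal arrays was the highest culture mean, but it includes N1 and N2, on which they were selected. On N3 and N4, Emid1 averaged 4.54 and Rfx3 5.98, below the astrocyte means of 5.21 and 6.29. Ldb2, a cofactor of LIM-domain factors (7.02, 7.29, 4.48 and 4.17), Rprml (8.25, 8.02, 5.52 and 5.79) and Catsperz (7.28, 7.65, 5.20 and 4.85) also had their highest culture mean in neurons. Ndrg1, a hypoxia- and stress-responsive gene, read 9.98, 9.90, 7.30 and 7.81, against 8.997 in astrocyte cultures. Enpp2, Calb2, Neurod1 and Neurod6 made up the rest. Just past the minimum of 1 lay Prox1 and Slc39a10 (8.93, 9.25, 8.03 and 8.14), and just short of it Zranb3 (6.74, 6.29, 5.58 and 5.45) and Dbn1 (10.97, 10.71, 9.74 and 9.93). In the other direction Anxa7 (6.45, 6.47, 7.53 and 7.39) and F2r (8.71, 8.64, 9.70 and 9.66) were just past it, and Magt1 (4.16, 4.38, 5.46 and 5.07) and Asrgl1 (8.05, 8.29, 9.42 and 8.91) just short.

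The 2 sets of counted genes differed in the culture where their mean level was highest. Of the 278 genes higher in N1 and N2, 203 (73.0%) had their highest culture mean in neurons, 34 in astrocytes, 21 in oligodendrocytes and 20 in microglia. Of the 426 higher in N3 and N4, 86 (20.2%) had it in neurons, 199 (46.7%) in astrocytes, 59 in oligodendrocytes and 82 in microglia. Over all genes the shares were 25.5% for neurons, 26.2% for astrocytes, 16.8% for oligodendrocytes and 31.5% for microglia. Genes higher in N3 and N4 had lower shares than these in oligodendrocytes (13.8%) and microglia (19.2%). The neuronal means used here come from the same 4 arrays. Among the 199 genes highest in astrocyte cultures, N1 was the lowest array for 143, and the median of N2 minus N1 was 0.32. Among the 86 highest in neurons N1 was lowest for 23, and the median was -0.24. N1 was also lowest for 54 of the 82 genes highest in microglia, with a median of 0.19, and for 33 of the 59 highest in oligodendrocytes, with a median of 0.18. All of these are genes counted as higher in N3 and N4, for which the rule leaves only N1 or N2 as the lowest array. The 33 of 59 for oligodendrocytes is close to an even split between N1 and N2.

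The RNA mixtures gave a repeat measurement of N1 and N2. Replicate 1 of each of the 5 mixtures contained RNA of N1 and replicate 2 that of N2, while RNA of N3 and N4 was in no mixture. The NA mixtures held a neuronal RNA fraction of 0.25, 0.5 or 0.75 with astrocytic RNA, and NAO and NAOM added oligodendrocytic and microglial RNA. Expected values were computed by adding the unlogged values of the RNAs that went into a mixture, each weighted by its fraction, and again with N3 or N4 put in place of the neuronal RNA. This was read on counted genes that lay below the array median in all other cultures, 69 higher in N1 and N2 and 39 higher in N3 and N4. Over the 10 mixture arrays, 73.9% to 92.8% of the first set and 94.9% to 100% of the second lay nearer the value from the stated parent. Over all genes the mean share was 51.4%. Both sets were chosen for differing on the arrays that gave the computed values. Median measured minus computed values were -0.33 to 0.07 in the first set and -0.25 to -0.09 in the second. A low reading lies toward the N3 and N4 values in the first set and away from them in the second.

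Single genes picked among those that differ between the pairs also lay mostly nearer the stated parent. In the NA3 mixtures, at a fraction of 0.75, Crh read 4.64 and 4.14 in replicates 1 and 2, where 5.09 and 4.54 were computed from N1 and N2 and 8.24 to 8.55 from N3 or N4. Sst read 9.74 and 9.46, where 9.41 and 9.26 were computed from the stated parents and 11.58 to 11.59 from N3 or N4. For Neurod6 the values were 9.16 and 9.09, against 8.97 and 9.34 from the stated parents and 6.69 to 7.08 from N3 or N4. All 10 arrays were nearer the stated parent for 15 of the 16 pair-differing genes examined, and 9 of 10 were for Gad2. For Snap25, where the computed values nearly coincide, 0 of 10 were. The mixtures share RNA with N1 and N2, so they repeat the measurement and not the culture, and N3 and N4 were each measured once.

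**Figure D5:**
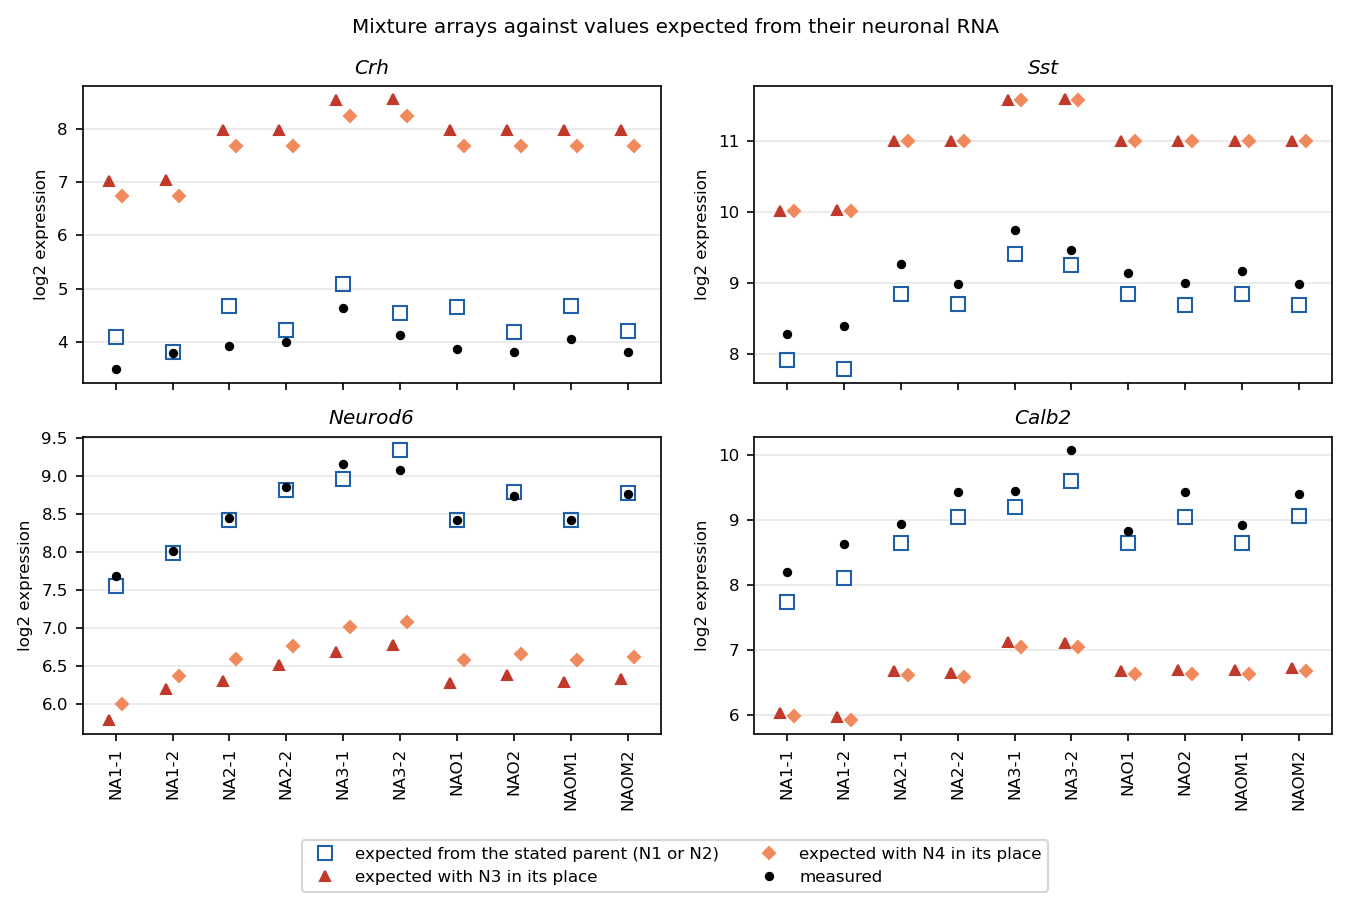
Log2 expression of Crh, Sst, Neurod6 and Calb2 (y axes) on the 10 mixture arrays (x axis, mixture and replicate), with measured values as black points, values computed from N1 or N2 as open squares and values computed with N3 or N4 in their place as triangles and diamonds. The black points lie near the squares on all 10 arrays.

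With 2 arrays a side, 4 arrays can be split into equal pairs in 6 ordered ways, so an exact two-sided permutation test could not go below p = 0.333 for any gene, even had the pairs been given by the labels. The gap within a pair is the only measure of error, and for the excitatory list its median was 0.24 in N1 and N2 and 0.20 in N3 and N4. The labels give no batch by which arrays of the pairs could be set apart, so dissection, culture, RNA preparation and hybridisation cannot be told apart as sources of the split.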

How the data were processed

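The deposited values are log2 expression made by the authors with RMA (affy), per the submitters' processing notes, which name no version. The table held 31099 probe sets and 26 arrays and was used as deposited. Control probe sets (57) served as quality measures. Of the other 31042, 20826 carried 1 gene symbol in the platform annotation, 436 several and 9780 none. For each of 14217 genes the probe set that was brightest on average over all 26 arrays was kept.

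For each gene the pair means, the gap within each pair and the separation of the arrays were computed (Python 3.11.15, pandas 2.3.3, numpy 2.4.6). The counting was tested on simulated data. The pairs, the 27 gene lists (552 genes, 465 of them measured) and the rules were chosen with earlier results of these data known. Named with values are counted list members, fixed defining markers, the 12 widest gaps each way and the genes nearest the minimum; further list members were named after their values were seen. Alternatives were other normalizations, a filter on dim probe sets, other probe sets per gene, other minima and leaving out each array. Microglial replicate 4, described as a mixture in 1 label, was kept as a culture. Promoter sequences are from RefSeq (GRCr8).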

Additional observations from a re-analysis of the deposited data

How the results depend on the processing

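No paired analysis was possible because the pairs share no replicate number and the results come from no test. The counts follow the minimum difference. A minimum of 0.5 gave 1214 genes higher in N1 and N2 and 1275 higher in N3 and N4, a minimum of 2 gave 21 and 44, and no minimum gave 4230 and 4336. Asking for a gap of at least 1 between the nearest arrays gave 171 and 226. Leaving out each array in turn gave 255 to 366 and 415 to 455, in place of 278 and 426. Median centring gave 301 and 390, quantile normalization of the 4 arrays 269 and 438, and the mean over all probe sets of a gene 214 and 335. With the probe set highest over the neuronal arrays, the excitatory median was -0.79 and Ocln turned to -0.29, while Col1a1 was at 0.29 and Mbp at -0.78, under the minimum. Without 1 array at a time, the list medians ranged from -0.62 to -0.54 (excitatory), 0.32 to 0.58 (inhibitory), 1.09 to 1.59 (astrocyte) and 0.075 to 0.158 (progenitor). The share of genes nearer the stated parent in the mixtures, a mean of 88.2% over 10 arrays, was 51.4% over all genes, and the cause was not tested. Of 127 named genes, 89 changed by less than their pooled SD within the pairs when all probe sets of a gene were averaged, and 38 moved further. Of 49 counted named genes with several probe sets, 40 had every probe set in the same direction and 0 had a probe set counted in the other. Of 115 named genes that were counted, 13 fell under the minimum without N1 (among them Arc, Nptx1, Bhlhe22 and Sox11), 14 without N2 (Cd24, Emx1, Grm7 and Kcnq3), 7 without N3 (Aldoc, Lss, Ntsr2 and Stx1a) and 7 without N4 (Cp, Lcn2, Cxcr4 and Gabra4). Averaging all probe sets took 27 under it, Camk2a, Gja1 and Shank2 among them. Precision is limited by 2 arrays a side.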

Other observations

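Smaller lists added little beyond the genes above. Of 23 genes of synaptic vesicle release 1 was counted, the syntaxin Stx1a, at 10.37, 10.40, 9.31 and 9.43 on N1 to N4. Of 17 genes of regional identity 3 were counted as higher in N1 and N2, namely Lhx2, Emx1 and Prox1. Of 21 glycolysis and hypoxia genes, Ndrg1 was higher in N1 and N2, and Aldoc and the haem oxygenase Hmox1 (6.11, 6.23, 7.95 and 7.65) were higher in N3 and N4. Of 14 cell stress genes Hspb1 was counted. Of 6 ependymal genes Rsph1, a gene of motile cilia, was higher in N1 and N2 at 5.18, 5.42, 3.86 and 4.28. Calb2 was the counted gene among 7 of Cajal-Retzius cells. Of 3 blood genes and 3 sex-linked genes, 0 were counted.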
